A study of Mus musculus with 31 samples.

Results

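The comparison described here sets the uterus of AF2 wild-type (AF2 WT) mice given 17β-estradiol (E2) against the uterus of AF2 WT mice given placebo. Arrays were chosen by their labels alone: 4 arrays labelled AF2 WT E2 and 4 labelled AF2 WT PLB, which makes 8 of the 31 arrays of the series. The series profiled RNA from mouse uterus on 1-colour Agilent arrays, in wild-type and mutant mice of the AF2 and MISS lines. Its title sets nuclear against membrane effects of estradiol on estrogen receptor α (ERα, encoded by Esr1). Only wild types are described below.

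Both AF2 WT groups were on the C57BL6/J background according to the labels. All mice had their ovaries removed at 4 weeks of age and then stayed 3 weeks on normal chow. They received castor oil under the skin, with 8 µg/kg of E2 in the E2 group and with none in the placebo group, and uterine RNA was taken after 6 h. The comparison is therefore between a single dose of hormone and its absence in animals without ovarian hormones. The labels do not say that each sample came from a separate mouse. The p-values rest on the spread between samples within a group, pooled over all 31 arrays of the series, mutants included. That spread may be partly technical. The MISS WT mice, used below as a second wild type, went through the same protocol on the C57BL6/N background and have their own 4 E2 and 4 placebo arrays.

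Estradiol binds ERα, and the hormone-bound receptor acts as a transcription factor, either on DNA or through other DNA-bound factors. Activation function 2 (AF2) is the surface of the receptor that takes up coactivators when hormone binds, and the wild types carry it intact. In the uterus of an ovariectomised mouse, an injection of E2 is known for an early phase of immediate early gene induction, water uptake and raised RNA and protein synthesis, followed by a later phase of DNA synthesis and cell division in the epithelium.

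Each of the 4 slides carried 1 AF2 WT E2 array and 1 AF2 WT placebo array, and the 4 values of a group are always given below in the order of slides 1 to 4. A level is the log2 processed signal of a probe less the 75th percentile of its array, and a change is the E2 mean minus the placebo mean with its standard error (SE). Levels of different probes are not compared with each other. The 75th percentile lay between 510.9 and 781.5 intensity units and 0 spots were saturated. With 4 arrays in each group, it is their number that sets the precision. The share of probes well above background was 69.5 to 76.4% on the placebo arrays and 64.9 to 72.2% on the E2 arrays. Uterine markers were present on all 8 arrays: Acta2 of smooth muscle at a mean of 8.18 and 8.36 in placebo and E2, Krt18 of epithelium at 6.50 and 6.21, and Hoxa11 of stroma at 3.72 and 3.06. Of markers of other organs, the oocyte gene Zp3 was at −5.07 and −5.11 and the bladder gene Upk2 at −5.17 and −5.11. In each of the lists for ovary and oviduct and for bladder, skeletal muscle and blood, 6 of 8 tested genes were well above background on all 8 arrays, at median levels of −0.25 and −0.63 and of −0.57 and −0.98 in placebo and E2. Their part in the results was not tested.

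Adipocyte markers stood apart between arrays of the same group. The median level of the 11 adipocyte genes was −1.22, 1.53, −1.37 and 1.70 on the placebo arrays and 1.26, −1.19, 1.20 and −0.63 on the E2 arrays. The high values thus fell on 2 arrays of each group, and the adipocyte genes did not separate the groups. Results are given without these 4 arrays where that changes them.

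A gene is called here where limma's adjusted p (Benjamini-Hochberg, over all genes) is under 0.05. Of 27056 genes tested, 15597 (57.6%) were called, 7466 (27.6%) higher and 8131 (30.1%) lower with E2. Counts of list members called are to be read below beside these shares. At least 2-fold changes were called in 2984 genes (11%) upward and in 3912 (14.5%) downward, and at least 8-fold changes in 227 and 151. The at least 2-fold lower genes numbered 1832 after normexp background correction, 2477 in the authors' series matrix and 2566 with a stricter filter on dim probes, beside 2362, 2053 and 2644 at least 2-fold higher. Placebo and E2 arrays did not overlap for 13421 genes (49.6%), and 15100 of the called genes had the same sign on all 4 slides. The same change on different slides correlated across genes at r = 0.829 to 0.883, a description over genes that share their arrays. Because these are whole-organ samples, less RNA per cell and fewer cells of a type cannot be told apart for any gene that is lower.

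The balance of higher and lower calls differed with the scaling and between dim and brighter genes. With the median of each array subtracted in place of its 75th percentile, 61.9% of the calls were higher, against 47.9% as reported and 35% with the 75th percentile taken over probes well above background on all arrays. The median of all genes was −0.07 as reported, 0.15 and −0.26 under those settings, so changes smaller than this are read only relative to it. Among 10624 dim genes, with a mean level under −2, 11.6% were higher and 32% lower. Among the 16432 brighter genes, 38% were higher and 28.8% lower. The plot of change against level shows the lower calls spread over the dim end. The median level of genes for odorant, taste and pheromone receptors, which the uterus is not known to use, was −4.48 to −4.02 on the placebo arrays and −4.75 to −4.37 on the E2 arrays. Of the 367 tested, 20.4% were called lower, beside 30.1% of all genes and 32% of dim genes, and 15 genes were called higher. The part of this shift in median level in the lower calls of dim genes was not tested.

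**Figure D1:**
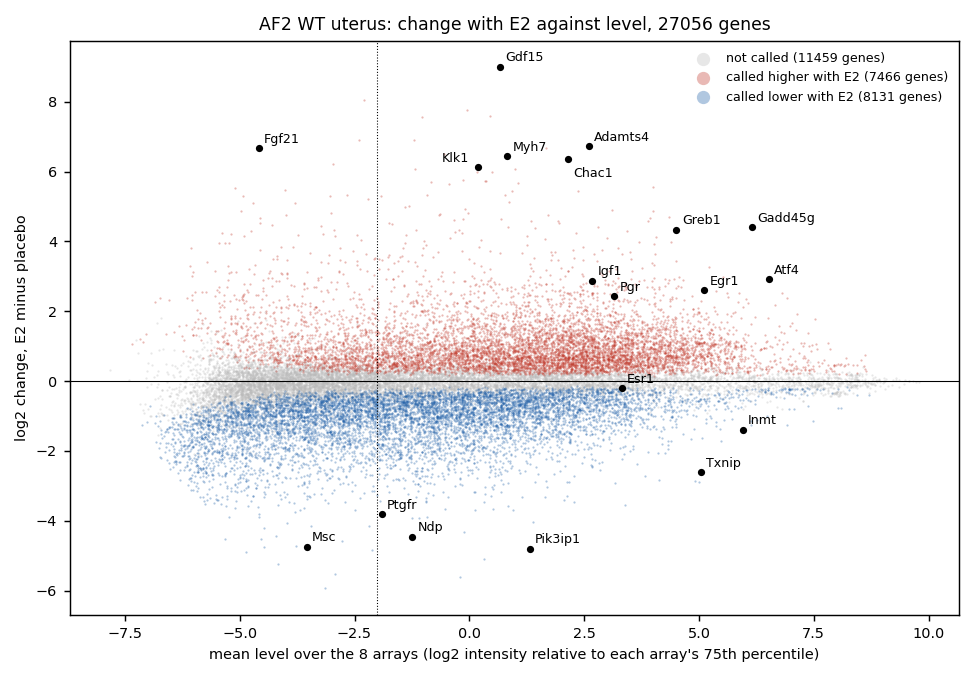
Each point is 1 of the 27056 tested genes, with its mean level over the 8 arrays (log2, relative to the 75th percentile of each array) on the horizontal axis and its log2 change, E2 minus placebo, on the vertical axis. The 7466 genes called higher are red, the 8131 called lower are blue, the dotted line marks a mean level of −2, and named examples are black.

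The genes described first had the largest rises among named genes above background on all 8 arrays. Gdf15, a stress-induced hormone of the TGF-beta family read by a probe at chr8:73153293-73153352 (mm9), stood at −4.02, −3.84, −4.15 and −3.31 on placebo and at 5.34, 4.96, 5.55 and 4.83 on E2. Every E2 array lay above every placebo array, and the change was 9.0 ± 0.29 (adjusted p = 8.37e-19). Adamts4, a protease that cuts aggrecan and versican, went from −0.38, −0.81, −0.93 and −0.91 to 6.34, 6.00, 6.07 and 5.45, a 105-fold rise. Scube1, a secreted EGF-domain protein, rose by 6.68 ± 0.40, with placebo values of −0.73, −1.96, −1.92 and −2.12 against E2 values of 4.94 to 5.09. The placebo array of slide 1 was the high value of its group, and the groups were still 5.70 apart on that slide. Myh7, a slow-muscle and cardiac myosin heavy chain, rose by 6.44 ± 0.21 from −2.54 to −2.19 on placebo to 3.23 to 4.58 on E2. Has1, an enzyme that makes hyaluronan, rose 67.9-fold, and Aqp8, a water channel, rose 54.7-fold. Klk1, Klk1b5, Klk1b26 and Egfbp2, secreted kallikrein proteases, rose by 5.99 to 6.12. Their sequences are nearly alike and the probes of Klk1b26 and Egfbp2 overlap in position, so how much each gene contributes is uncertain.

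Pik3ip1, an inhibitor of PI 3-kinase (chr11:3242107-3242166, mm9), went from 3.77, 4.11, 3.60 and 3.37 on placebo to −0.85, −1.13, −1.14 and −1.24 on E2. It was lower on each of the 4 slides and fell by 4.80 ± 0.22 on the log2 scale (adjusted p = 8.87e-16), a 27.9-fold change. Ndp, the ligand norrin of the Wnt receptor Fzd4, changed by −4.46 ± 0.17. Bmf, a pro-apoptotic BH3 protein, changed by −3.59 ± 0.12 with slide differences between −3.61 and −3.56, so the 4 slides gave nearly the same value. Ptgfr, the receptor for prostaglandin F2α, was 14.1-fold lower, and Lrrc17, a secreted leucine-rich protein, was 16.6-fold lower. Mcf2, Tbx6, Tmem140, Rhebl1, Fam13a and Coq8a completed the 11 described, with falls of 12.6 to 17.8-fold. In these 23 genes no placebo array overlapped an E2 array, as the rule for naming them required.

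**Figure D2:**
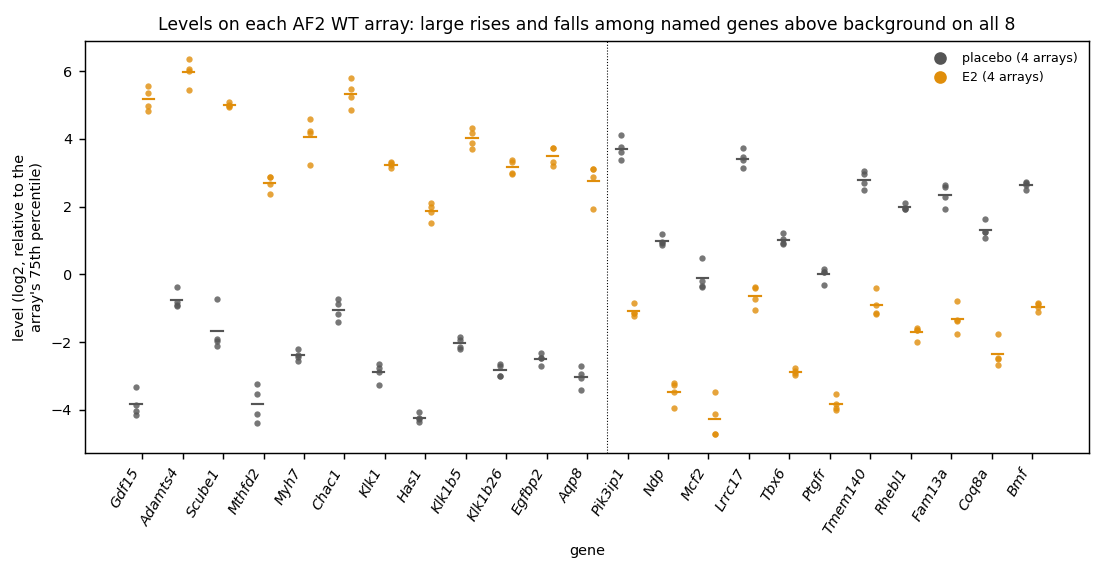
Levels (log2, relative to the 75th percentile of each array) of the 12 largest rises, left of the dotted line, and 11 large falls, right of it, on each of the 4 placebo (grey) and 4 E2 (orange) arrays, with short lines for group means. The groups are apart for every gene shown, from Gdf15 at a change of 9.0 to Bmf at −3.59.

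Some genes were read above background in a single group. With E2, 61 genes were well above background on all 4 E2 arrays and on 0 placebo arrays, and 276 showed the reverse. Their folds are lower bounds, set against the dimmest signal that counted as well above background on each array. Fgf21, a metabolic hormone, was at least 21.8-fold higher with E2, with E2 levels of −1.55, −1.60, −0.60 and −1.27. Adm2, a vasodilator peptide of the adrenomedullin family, was at least 21.9-fold higher. Unc5cl, an UNC5-like adaptor of inflammatory signalling, was at least 21.5-fold higher. Fosl1, an AP-1 factor, Ces1a, a carboxylesterase, and Aoc1, which degrades histamine and putrescine, were at least 12.1, 11.8 and 11.2-fold higher. In the other direction Msc, a bHLH repressor known as musculin, was at least 20.7-fold lower, from −1.27, −1.18, −1.11 and −1.13 on placebo. The prostaglandin D2 receptor Ptgdr was at least 10.9-fold lower and the lactate receptor Hcar1 at least 9.67-fold lower. Saxo1, Ypel4 and H2bc23 were at least 7.38, 6.62 and 6.18-fold lower.

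Abundant transcripts moved as well. In the top 5% of genes by mean level, the largest rise was that of Gadd45g, a growth-arrest and stress gene, from 4.25, 3.98, 3.92 and 3.63 to 8.55, 8.23, 8.51 and 8.14. Pnp, the purine salvage enzyme, went from 4.07, 3.97, 4.04 and 4.06 to 7.07, 7.01, 7.02 and 7.02, a change of 2.99 ± 0.07 with hardly any spread within groups. Plet1, a surface protein of progenitor epithelia, rose 9.65-fold and Zmiz1, a transcriptional co-regulator, 5.93-fold. Among the abundant genes that fell, Txnip, which restrains glucose uptake and thioredoxin, went from 6.22, 6.42, 6.44 and 6.28 to 3.50, 3.87, 3.67 and 3.90. Inmt, a methyltransferase, fell 2.62-fold and Selenop, a selenium carrier, 2.47-fold. Ifitm1, an interferon-induced membrane protein, fell 2.6-fold, Pagr1a 3.08-fold and Cfap74 3.31-fold.

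Of the classical targets of ERα, Pgr and Greb1 were higher at 6 h, and Ltf and C3 were not called. Pgr, the progesterone receptor (chr9:8968492-8968551, mm9), stood at 2.06, 2.12, 1.67 and 1.91 on placebo and at 4.40, 4.38, 4.34 and 4.35 on E2. The E2 values were close to each other and far above the placebo values, a change of 2.43 ± 0.11 (adjusted p = 6.41e-16). Greb1, an ERα cofactor and target, went from 3.09, 1.91, 2.32 and 2.04 to 7.09, 6.57, 6.89 and 6.17, a 20.2-fold rise. Ltf, lactotransferrin, and C3, complement component 3, are late secretory genes. Ltf changed by 0.12 ± 0.46 (adjusted p = 0.85) and C3 by 0.10 ± 0.24 (adjusted p = 0.765), and each of them rose on 2 slides and fell on the other 2. They do not stand for secretory genes as a set. Of 23 secretory and estrogen-responsive epithelial genes, 16 were higher and 0 lower.

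Of the 28 steroid receptors and co-regulators tested, 9 were higher and 9 lower, beside 27.6% and 30.1% of all genes, with 15 lower under quantile normalization, and the list's median changed sign between scalings (−0.07 as reported, 0.15 with array medians subtracted). Nrip1, a corepressor recruited by the hormone-bound receptor, rose from 1.84, 1.65, 1.90 and 1.76 to 3.90, 4.00, 3.93 and 4.22. Gper1, a membrane estrogen receptor, fell from 0.11, 0.02, 0.01 and −0.43 to −2.19, −2.14, −2.03 and −1.45. Nr2f2, the stromal receptor COUP-TFII, fell by 1.01 on the log2 scale, and Gata3 fell 2.23-fold. Esr1 itself was not called in the reported fit, at −0.20 ± 0.12 (adjusted p = 0.172), with placebo values of 3.43, 3.54, 3.24 and 3.46 and E2 values of 3.03, 3.14, 3.06 and 3.65. The E2 array of slide 4 was the high one, and without it the change was −0.34 (adjusted p = 0.0102). Esr1 was also called lower under quantile normalization, at −0.55 (adjusted p = 0.0016), with the percentile of detected probes, at −0.40 (adjusted p = 0.0109), and in the authors' series matrix, at −0.53 (adjusted p = 0.00133). The 4 probes of Esr1 disagreed, from −0.36 to 0.54, with 1 called in each direction. Esr2, the second estrogen receptor, changed by −0.03 ± 0.09 (adjusted p = 0.793) as reported and by −0.39 (adjusted p = 0.0086) under quantile normalization and −0.41 (adjusted p = 0.00382) in the series matrix.

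Enzymes that make, convert or clear estrogens moved apart. Of the 17 genes of estrogen metabolism and steroid handling, 3 were higher and 8 lower (median −0.32), beside 27.6% and 30.1% of all genes. With array medians subtracted 6 were higher and 5 lower, and with a stricter filter on dim probes 4 were lower. Hsd17b7, which acts on estrone and in cholesterol synthesis, rose from −3.43, −3.16, −3.33 and −2.56 to −0.39, −0.16, −0.58 and 0.35. Cyp1b1, which hydroxylates estradiol, went from 0.25, 0.13, 1.06 and −0.28 to −4.84, −5.06, −3.73 and −4.54, the last values well above background on 3 of 4 arrays. Ahrr, the repressor of the aryl hydrocarbon receptor, was called lower and was well above background on 1 of 4 E2 arrays. Of its 2 tested probes, at −3.37 and −0.56, 1 was called lower. Srd5a1, a steroid 5α-reductase, fell 3.42-fold.

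Several growth factor genes rose, and some receptor genes fell. Igf1, the growth factor through which stroma is known to act on uterine epithelium (chr10:87399581-87399640, mm9), went from 1.17, 1.5, 1.09 and 1.23 to 4.00, 4.14, 4.16 and 4.17. The groups were far apart, and all 5 probes of the gene rose, by 2.24 to 2.88. Of the 16 IGF system genes, 3 were higher and 8 lower, beside 27.6% and 30.1% of all genes. Without the 4 arrays high in adipocyte markers 5 were lower. The lower genes included Igf1r and Insr, the receptors for IGF-1 and insulin, at −1.16 and −0.86; both are named here after their values were seen. Irs2, the docking protein of those receptors, fell from 3.94, 3.81, 3.66 and 3.66 to 0.80, 0.37, 0.41 and 0.37. Igfbp3, a carrier of IGF-1, fell 3.8-fold and Igf2r, the clearance receptor of IGF-2, fell 3.59-fold, while Igfbp1, another carrier, was at least 1.79-fold higher.

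In the EGF family, 6 of 13 genes were higher and 5 lower, beside 27.6% and 30.1% of all genes. Nrg2, a ligand of the ERBB receptors, rose from 0.05, 0.02, 0.14 and −0.05 to 3.58, 3.73, 3.38 and 3.32, and Hbegf, a ligand of the EGF receptor, rose 4.54-fold. Errfi1, an inhibitor of that receptor, rose 7.92-fold. Nrg4 and Egf, other ligands, fell 3.05 and 1.53-fold, and Btc was called lower, well above background on 1 of 4 E2 arrays. The receptor Egfr was not called, at −0.06 (adjusted p = 0.631). Of 14 FGF ligands and receptors, 6 were higher and 5 lower: Fgfr3 rose 3.84-fold and the decoy receptor Fgfrl1 3.15-fold, while Fgf10, a stromal ligand, went from 0.22, −0.16, 0.00 and −0.02 to −2.78, −2.80, −3.05 and −2.69, and Fgf7 fell 2.89-fold.

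Wnt signalling genes changed in both directions. Of 35 ligands, receptors and feedback genes, 9 were higher and 17 lower (median −0.36), beside 27.6% and 30.1% of all genes. Wnt4, a ligand needed for decidualisation, rose from 1.5, 1.20, 1.93 and 1.95 to 5.47, 5.80, 5.07 and 5.10. Wnt7b rose 11.3-fold and Wnt9a 5.7-fold. Among the lower genes, the receptor Fzd1 went from 2.69, 3.16, 2.77 and 2.88 to −0.23, 0.02, −0.10 and 0.29, Wnt6 fell 4.13-fold, and the antagonist Sfrp2 3.07-fold. In the Notch list, 8 of 18 were higher and 6 lower, and 5 were higher without the 4 arrays high in adipocyte markers. Its repressor targets Heyl and Hey1 rose 6.91 and 4.82-fold and the ligand Dll1 rose 3.38-fold, whereas Jag1, another ligand, fell 1.9-fold and the receptor Notch2 fell 2.03-fold. Dll1 and Notch2 each had another tested probe that was not called, at 0.27 and −0.03. In the hedgehog list, 1 of 13 genes was higher and 7 were lower. The one was Dhh, a ligand, from −2.21, −2.10, −2.26 and −2.03 to 1.02, 0.98, 1.33 and 0.48. Ptch1, the receptor, fell by 2.80 ± 0.52, Boc by 1.27 and the transcription factor Gli2 by 1.1 on the log2 scale.

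In the BMP, activin and TGF-beta system 10 of 28 genes were higher and 8 lower, beside 27.6% and 30.1% of all genes. Under quantile normalization 13 were lower, and the median changed sign between scalings (−0.03 as reported, 0.19 with array medians subtracted). The activin βB subunit Inhbb rose from 1.77, 1.56, 1.62 and 1.44 to 6.53, 6.15, 6.41 and 6.03. The α subunit Inha, which turns activin into inhibin, fell from 0.30, 0.31, 0.15 and 0.05 to −1.93, −2.10, −2.03 and −2.54. Fstl3, a binding protein that blocks activin, rose 3.3-fold. Id2, a target of BMP signalling, fell 3.05-fold.

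Immediate early genes were high at 6 h. Of 20 immediate early and AP-1 factors tested, 18 rose and 0 fell, against 27.6% and 30.1% of all genes, with a median of 2.24 beside −0.07 for all genes. Fos went from 0.31, 0.59, 0.16 and 1.93 on placebo to 3.85, 3.85, 4.58 and 4.60 on E2, and Nr4a1, an orphan nuclear receptor, from 2.35, 2.54, 2.35 and 3.86 to 6.08, 5.85, 6.69 and 6.24. For both genes the placebo array of slide 4 was the high one of its group, and it was still below every E2 array. Egr1, a zinc finger factor, rose by 2.60 ± 0.33. The exceptions were Ier5l at 0.15 (adjusted p = 0.632) and Mafk at 0.06 (adjusted p = 0.715). Feedback inhibitors of MAP kinase signalling were mixed, 12 of 19 higher and 5 lower. Phlda1 rose 8.6-fold and the phosphatase Dusp8 6.72-fold, whereas the inhibitor Spry1 fell 2.13-fold and the phosphatases Dusp10 and Dusp4 fell 2.07 and 1.82-fold.

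The list with the largest median was the ATF4 programme with amino acid synthesis. ATF4 is a transcription factor whose protein is made when amino acids are short or the endoplasmic reticulum is under load, and its targets include enzymes of serine, glycine, proline and asparagine synthesis. Of 28 genes, 27 rose and 0 fell, with a median of 2.66. The exception was Gpt2, an alanine transaminase, at 0.20 (adjusted p = 0.327). The transcript of Atf4 itself, among the most abundant on the arrays, went from 5.17, 5.06, 5.03 and 4.99 to 8.19, 7.87, 8.13 and 7.70. Mthfd2, a mitochondrial folate enzyme, went from −3.23, −4.39, −3.53 and −4.11 to 2.67, 2.36, 2.86 and 2.88, a 91-fold change. Chac1, which degrades glutathione, went from −0.87, −1.16, −1.41 and −0.73 to 5.46, 5.22, 5.78 and 4.84, an 82.5-fold change.

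Promoter sequences were examined for the letters of the C/EBP-ATF element, the sequence that ATF4 binds with C/EBP proteins, because 27 of the 28 genes of this list rose. The window was 250 bases before to 50 after each gene's start in RefSeq on GRCm38.p6, and TGATGNAA was searched on both strands. It was present in 8 of the 26 genes of the ATF4 list with a window (30.8%) and in 5 of 15 cytosolic aminoacyl-tRNA synthetases (33.3%), beside 3.2% of the 13868 tested genes with a window and 4.51% of all 27025 genes with one. Among all genes called higher the share was 2.76%, and among genes that rose by 3 or more on the log2 scale it was in 15 of 149 windows. The same share was 6.04% of 480 windows for a rise of 2 or more and 4 of 66 windows for a rise of 4 or more. Ribosome assembly factors, which rose as a list, held it in 1 of 47 windows. These shares describe letters and not binding. The ATF4 list was drawn from textbook knowledge of the programme, so its share is not independent of how the list was made. It is given as a description and not as a test. In the windows of 5 such genes below, capitals mark 1 element with 30 bases on each side, written 5′ to 3′ along the strand of the gene. The window of Slc7a11 holds 2 matches, and the other one stands in lower case in the bases printed. Got1, an aspartate transaminase that rose by 3.65, and Pycr1, an enzyme of proline synthesis that rose by 3.42, are named for their element, after their values were seen, and Slc7a11 is a cystine transporter.
Fgf21, chr7:45615592-45615659, minus strand: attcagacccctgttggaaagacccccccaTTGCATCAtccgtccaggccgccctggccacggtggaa
Chac1, chr2:119351019-119351086, plus strand: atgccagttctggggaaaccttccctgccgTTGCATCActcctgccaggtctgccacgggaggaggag
Got1, chr19:43524670-43524737, minus strand: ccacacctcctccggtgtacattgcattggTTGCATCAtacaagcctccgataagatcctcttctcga
Pycr1, chr11:120643814-120643881, minus strand: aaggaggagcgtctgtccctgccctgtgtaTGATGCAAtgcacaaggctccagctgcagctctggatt
Slc7a11, chr3:50443623-50443690, minus strand: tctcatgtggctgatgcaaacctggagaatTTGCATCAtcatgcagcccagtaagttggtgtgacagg
Relative to the gene start the element begins at −139 in Fgf21, −193 in Chac1, −102 in Got1, −103 in Pycr1 and −47 in Slc7a11. The letters TTGCATCA and TGATGCAA are the same element read from opposite strands.

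Other elements were searched in the same windows. The palindromic estrogen response element, searched as its consensus half-sites around 3 free bases, was in 20 of 27025 windows (0.074%) and in 3 of the 4573 windows of genes called higher. The E-box CACGTG, bound by Myc and other bHLH factors, was in 10.3% of the windows of tested genes, in 12.8% of those called higher, in 9.38% of those called lower and in 15.3% of those at least 2-fold higher. By list it ran from 0 of 20 mitosis genes to 8 of 19 CDK inhibitors and p53 targets. Overlap between the E-box and the other motifs was not counted.

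Genes of amino acid uptake and tRNA charging were mostly higher. Of 26 amino acid transporters, 14 were higher and 8 lower, beside 27.6% and 30.1% of all genes. Slc7a5, the large neutral amino acid transporter, rose from −0.47, −0.54, −0.66 and −1.1 to 3.25, 2.65, 2.99 and 3.00, and Slc7a1, which carries arginine and lysine, rose 12.6-fold. Slc43a1 and Slc7a8, carriers of neutral amino acids, fell 4.33 and 3.72-fold, and the taurine carrier Slc6a6 fell 2.69-fold. Of 22 cytosolic aminoacyl-tRNA synthetase genes, 20 rose and 0 fell (median 1.76). Aars, which charges alanine tRNA, went from 2.31, 2.12, 2.01 and 1.85 to 6.25, 6.04, 6.02 and 5.65. Yars for tyrosine rose 10.9-fold and Cars for cysteine 7.53-fold, while Qars for glutamine was not called at 0.03 (adjusted p = 0.817). The mitochondrial synthetases were mixed: 6 of 17 were higher and 4 lower, and the median was −0.07 as reported and 0.15 with array medians subtracted. Yars2 rose 3.55-fold and Mars2 3.13-fold, while Pars2 and Cars2 fell 1.64 and 1.63-fold.

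Genes for building ribosomes rose almost throughout. Of 53 ribosome assembly factors tested, 50 rose and 0 fell, with a median of 1.90, and the counts were the same without the 4 arrays high in adipocyte markers. Rrp12, which carries pre-ribosomes out of the nucleus, went from −2.91, −3.03, −2.78 and −2.85 to 1.07, 1.22, 0.82 and 0.87. Bysl, a factor of the small subunit, rose 11.5-fold, and the nucleolar helicase Ddx21 8.91-fold. The 3 not called were Npm3 at 1.1 (adjusted p = 0.241), Noc3l at 0.14 (adjusted p = 0.259) and Imp3 at 0.12 (adjusted p = 0.512). RNA polymerase I, which transcribes ribosomal RNA, had 12 of 14 genes higher and 0 lower. Its subunits Cd3eap, Polr1e and Polr1b rose 4.9, 4.84 and 3.45-fold, and another tested probe of Polr1b was not called, at 0.48. The architectural factor Ubtf was at 0.07 (adjusted p = 0.65) by the probe used here, while another of its 2 tested probes was called higher, at 1.45.

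The proteins of the cytosolic ribosome itself did not share this rise. Of 76 cytosolic ribosomal proteins, 5 were higher and 7 lower as reported, with a median of −0.05. This count followed the scaling, with 19 higher and 0 lower when array medians were subtracted and 0 higher and 34 lower with the percentile of detected probes, so no direction is given. Rpl27 stood at 7.07, 6.99, 7.03 and 6.67 on placebo and at 7.37, 7.33, 7.34 and 7.12 on E2, a change of 0.35 ± 0.11. All 76 changes lay between −0.39 for Rps20 and 0.47 for Rps2, both named for being the ends of the range after their values were seen. These probes are among the brightest on the arrays, and many ribosomal protein genes have pseudogenes of near-identical sequence. Rpl21 had probes called in both directions. Mitochondrial ribosomal proteins differed from the cytosolic ones in count, with 66 of 76 higher and 1 lower (median 0.66). Mrps18b went from 3.57, 3.27, 3.35 and 3.38 to 5.28, 5.39, 5.33 and 5.03, and Mrps7 and Mrpl12 rose 3.48 and 3.34-fold. The lower gene was Mrpl34, at −1.04 ± 0.10.

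Translation, folding and protein disposal lists were among the most uniform. Of 39 translation initiation factors 32 rose and 2 fell (median 1.24). The β subunit of eIF2, Eif2s2, went from 3.30, 3.32, 3.33 and 2.89 to 6.31, 5.96, 6.29 and 5.80, and Eif4ebp1, a brake on cap-dependent translation, rose 6.94-fold. All 33 genes of the proteasome list rose, by a median of 0.99, and 30 did so without the 4 arrays high in adipocyte markers. That list leaves out the subunits Psmb8 and Psmb9, which did not rise. Psmb8 was not called, at −0.09, and the 2 tested probes of Psmb9 were called lower, at −1.99 and −0.96. The ATPase subunit Psmc5 rose from 2.45, 2.27, 2.47 and 2.59 to 4.13, 4.45, 4.32 and 4.31. All 28 cytosolic chaperone and chaperonin genes rose as well (median 1.34). Hsph1, a co-chaperone of HSP70, went from 2.40, 2.34, 2.31 and 2.34 to 4.77, 5.77, 4.96 and 5.46, and Hspa4 rose 5.05-fold. In the endoplasmic reticulum list 23 of 27 rose and 0 fell, led by Manf, Creld2 and Hspa5, secreted or resident folding proteins, at 4.1, 3.92 and 3.75-fold. Nuclear pore and transport genes rose in 35 of 39, with the importin Kpna2 at 7.38-fold, Rangap1 at 5.8-fold and the tRNA exporter Xpot at 5.13-fold. Xpo1, the main protein exporter, was not called, at −0.36 (adjusted p = 0.0675).

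**Figure D3:**
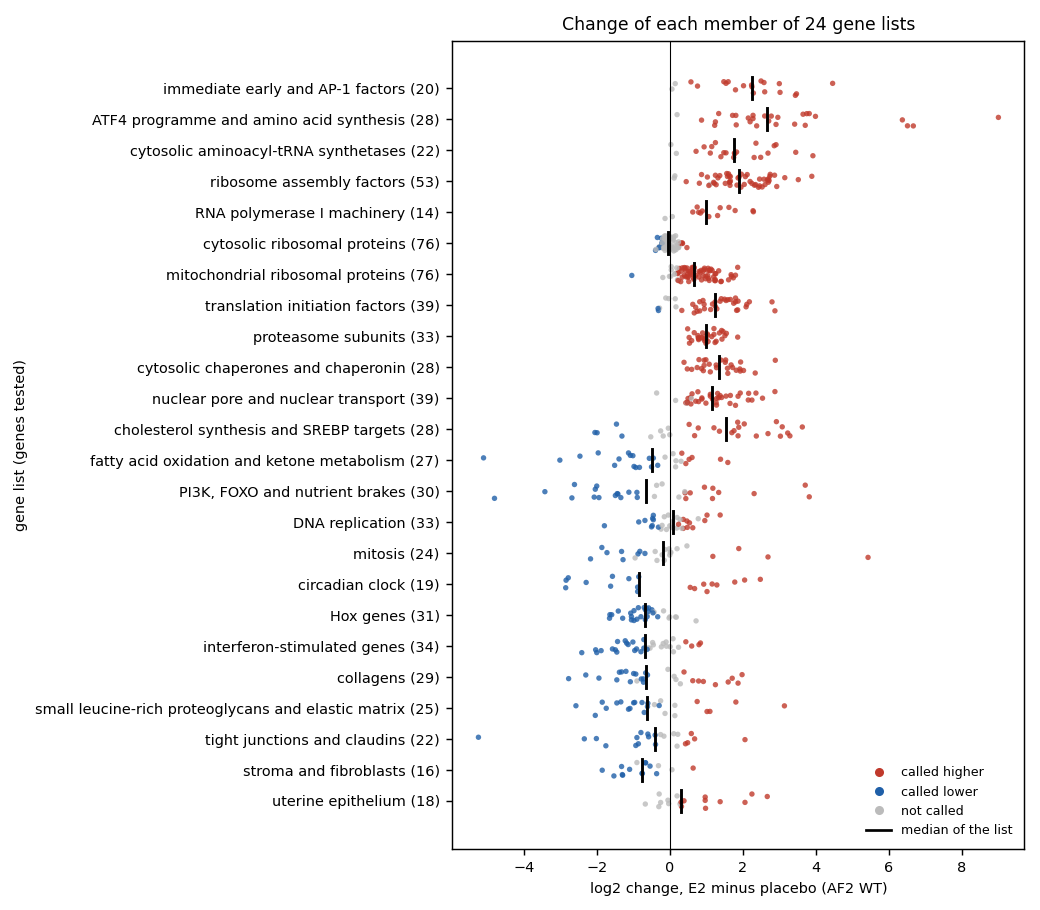
Each point is the log2 change, E2 minus placebo, of 1 gene of 24 lists, red where called higher, blue where called lower and grey where not called, with a black bar at the median of the list and the number of genes tested in brackets. Lists of ribosome assembly, tRNA charging, chaperones and proteasome lie right of 0, cytosolic ribosomal proteins cluster at 0 with a median of −0.05, and Hox and stromal genes lie left of it.

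Transcripts for enzymes of nucleotide and polyamine synthesis were mostly higher. Of 28 genes of purine and pyrimidine synthesis 21 rose and 2 fell (median 0.90). Ctps, which makes CTP, went from 2.47, 2.37, 2.51 and 1.79 to 5.14, 5.08, 5.15 and 4.57, Nme1 rose 5.65-fold and Umps 4.01-fold, while Prps2 and Ctps2 fell 1.6 and 1.53-fold. Among 14 polyamine genes 10 rose and 2 fell. The spermidine synthase Srm rose from 1.99, 1.60, 1.72 and 1.76 to 5.20, 5.38, 5.31 and 5.14, and Azin1, which protects ornithine decarboxylase, rose 3.41-fold. Azin2 and the polyamine oxidase Paox fell 2.96 and 1.96-fold.

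Cholesterol synthesis genes were mostly higher and exporters lower. Of 28 genes of cholesterol synthesis and SREBP targets, 19 were higher and 4 lower (median 1.53), beside 27.6% and 30.1% of all genes. Under quantile normalization 7 were lower. Cyp51, which demethylates lanosterol, went from −3.02, −2.58, −3.11 and −2.45 to 0.45, 0.31, 0.44 and 0.80. Idi1, an isomerase earlier in the pathway, rose 9.35-fold. The lower genes included Abcg1 and Abca1, cholesterol exporters, at 4.14 and 3.98-fold, and Mylip, which degrades the LDL receptor, at 2.76-fold. Fatty acid synthesis was not uniform, with 6 of 17 genes higher and 2 lower, 6 lower under quantile normalization, and a median that changed sign between scalings (0.15 as reported, −0.08 under quantile normalization). Fasn rose 3.63-fold and Acaca 2.68-fold, whereas Thrsp fell by 1.65 ± 0.47. Thrsp stood at 2.97, 2.05, 2.62 and 1.74 on placebo and at 1.04, −0.31, 1.11 and 0.96 on E2, so that its high placebo arrays were those low in adipocyte markers and its low E2 array was low in them.

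Genes of fatty acid and ketone use were mostly lower, and those of glycolysis and respiration more often higher. Of 27 genes of fatty acid oxidation and ketone metabolism, 6 were higher and 16 lower (median −0.50), beside 27.6% and 30.1% of all genes. Without the 4 arrays high in adipocyte markers 3 were higher and 14 lower. The lower genes included Ppargc1a, a coactivator of mitochondrial and fasting genes, from 1.18, 1.57, 0.92 and 1.1 to −1.99, −1.73, −2.02 and −1.53, and Bdh2 at 5.51-fold. Pparg, an adipogenic receptor, rose by 1.39 ± 0.32, and its values of −1.65, −0.84, −1.85 and −0.93 on placebo and 0.74, −0.17, 0.28 and −0.55 on E2 were highest on the 2 arrays of each group that were high in adipocyte markers. Glycolysis and pentose phosphate genes were higher in 15 of 30 and lower in 4, with 7 lower in the series matrix. Hk2, the insulin-responsive hexokinase, rose from −2.28, −2.52, −2.66 and −2.33 to 2.04, 1.58, 2.08 and 1.57, while Pfkm and Ldhb fell 3.42 and 2.17-fold. Of 49 oxidative phosphorylation subunits, 38 were higher and 1 lower (median 0.60), and 22 were higher under quantile normalization and 25 without the 4 arrays high in adipocyte markers. Cytochrome c, Cycs, rose 6.4-fold and Cox5a 3.42-fold, and the lower gene was Ndufa6 at −0.86 ± 0.09.

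Brakes on nutrient and PI3K signalling were mixed. Of 30 genes, 10 were higher and 15 lower (median −0.66), beside 27.6% and 30.1% of all genes, with 6 higher under quantile normalization. The mTOR-binding protein Deptor fell 6.4-fold, while another of its tested probes was not called, at −0.73. Sesn1, a p53- and FOXO-responsive inhibitor of mTORC1, fell from 3.90, 3.96, 3.85 and 3.40 to 0.54, 0.32, 0.19 and 0.38. By contrast Sesn2, a member of the ATF4 list too, rose from 0.01, −0.20, 0.21 and 0.04 to 3.90, 3.57, 3.92 and 3.51. Trib3, a pseudokinase in the same list, rose 14.2-fold and the factor Klf4 4.95-fold. The 2 sestrins thus went in opposite directions in the same tissue.

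Cell cycle genes were not raised as a group at this time. Of 33 DNA replication genes 10 were higher and 9 lower, beside 27.6% and 30.1% of all genes. The counts were 16 and 4 when array medians were subtracted, and the median changed sign between scalings (0.08 as reported, −0.12 with the percentile of detected probes). Pcna, the polymerase clamp, rose from 2.79, 3.00, 2.80 and 2.81 to 4.16, 4.16, 4.32 and 4.28, and Mcm5 2.03-fold. Mcm7, of the replicative helicase, fell 1.8-fold and Gins4 1.41-fold. Of 24 mitosis genes 4 were higher and 8 lower, with 5 and 5 when array medians were subtracted and 4 and 13 with the percentile of detected probes. Mad2l1, a spindle checkpoint protein, was an exception in size, from −0.48, −0.31, −0.31 and −0.31 to 5.29, 4.86, 5.09 and 5.08, and its 3 probes rose by 5.34 to 5.68. Tpx2 rose 6.45-fold and Birc5 3.71-fold, while Bub1b, Cenpa and Cdc25b fell 4.51, 3.63 and 3.29-fold. The 3 tested probes of Birc5 ranged from 0.33 to 1.89, and 2 were called higher. Mki67, the proliferation marker, changed by −0.82 ± 0.28 (adjusted p = 0.0131), with 1 of its 2 tested probes called. That call was lost with array medians subtracted, at −0.60 (adjusted p = 0.074), and without the 4 arrays high in adipocyte markers, at −0.91 (adjusted p = 0.0785).

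Regulators of entry into the cycle were likewise split. Of 21 G1 cyclin, E2F and Rb family genes 7 were higher and 6 lower, beside 27.6% and 30.1% of all genes. The counts were 9 and 2 when array medians were subtracted, and the median changed sign between scalings (0.11 as reported, −0.09 with the percentile of detected probes). Ccnd1, cyclin D1, was not called, at 0.05 ± 0.15 (adjusted p = 0.817), whereas Ccnd2, cyclin D2, rose from 3.61, 3.57, 3.36 and 3.68 to 4.51, 4.72, 4.51 and 4.30. Ccng2, an atypical cyclin linked to arrest, fell 5.14-fold and Rbl2, a pocket protein of quiescent cells, 2.08-fold. Myc rose from 1.51, 1.42, 1.34 and 1.54 to 2.53, 2.53, 2.82 and 2.68. In its network Mycn rose 3.22-fold and Mlx 2.24-fold, while its antagonists Mxd4 and Mxd1 fell 2.37 and 2.19-fold and Mxi1 was at least 3.31-fold lower. CDK inhibitors and p53 targets were higher in 13 of 23 and lower in 8. Cdkn1a, the inhibitor p21, rose from 0.15, −0.18, 0.62 and 0.23 to 4.44, 4.54, 4.37 and 4.38, and Gadd45a rose 11-fold. Trp53inp1 fell 7.79-fold and Cdkn2c, the inhibitor p18, 4.05-fold.

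Genes of vessels and fluid held some of the larger changes. Of 32 vascular factors 14 were higher and 7 lower, beside 27.6% and 30.1% of all genes. Vegfa, which raises vessel permeability, went from 2.26, 2.32, 2.36 and 2.73 to 6.36, 6.41, 6.18 and 6.58, a 15.7-fold rise. Pgf, its relative, rose from −1.73, −1.69, −1.58 and −2.24 to 3.84, 3.84, 3.60 and 3.29, and Ramp3, a partner of the adrenomedullin receptor, rose 46.9-fold. Angpt1, which stabilises vessels, fell 6.94-fold and Vegfd 5-fold, and Esm1 was called lower, well above background on 1 of 4 E2 arrays. Of 27 water and ion transport genes 11 were higher and 6 lower, with 7 higher without the 4 arrays high in adipocyte markers, and the median changed sign between scalings (−0.01 as reported, 0.20 with array medians subtracted). The water channels went apart: Aqp5 rose from −0.53, −0.11, −1.60 and −1.54 to 3.84, 3.59, 3.76 and 3.35 and Aqp8 rose as above, while Aqp11 fell 4.59-fold and Aqp1, the endothelial channel, 2.36-fold. The potassium channel Kcnk5 rose 8.02-fold, and the anion exchanger Slc26a3 was at least 3.27-fold lower.

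Matrix genes changed in both directions. Of 29 collagens 9 were higher and 15 lower (median −0.66), beside 27.6% and 30.1% of all genes, with 11 higher and 9 lower when array medians were subtracted. The microfibrillar collagen chain Col6a3 rose from 4.01, 4.12, 3.82 and 4.52 to 6.03, 5.93, 5.99 and 6.00, Col6a2 rose 3.28-fold and Col8a2 3.95-fold. Col5a2, which nucleates fibrils, fell from 0.18, 0.61, 0.20 and 0.24 to −2.27, −2.59, −2.04 and −2.97. Of 25 small proteoglycans and elastic fibre genes 5 were higher and 15 lower (median −0.61). Fbln2, an elastic fibre protein, rose 8.84-fold and Ogn, a small proteoglycan, 2.03-fold, whereas Prelp and Lum, other small proteoglycans, fell 5.95 and 3.6-fold and the crosslinking enzyme Lox 4.11-fold. Matrix proteases and inhibitors were even, 11 of 34 higher and 13 lower. With Adamts4, the related Adamts9 rose 8.85-fold and the urokinase receptor Plaur 7.11-fold. Mmp11, a stromal protease, fell from 3.10, 3.35, 2.87 and 3.54 to 0.26, 0.14, 0.14 and 0.21, and Mmp9 and Mmp10 fell 4.72 and 4.13-fold. Of 18 hyaluronan genes 5 were higher and 5 lower, with 9 lower under the percentile of detected probes. Has1 led the rises and its relative Has2 fell 2.15-fold, with levels of −2.98, −2.91, −2.92 and −2.69 on placebo and −3.83, −4.54, −3.64 and −3.91 on E2.

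The epithelial barrier and its secretions changed in composition. Of 22 tight junction genes and claudins 5 were higher and 12 lower (median −0.40), beside 27.6% and 30.1% of all genes. Without the 4 arrays high in adipocyte markers 3 were higher and 8 lower. Cldn7 rose from 3.37, 3.04, 3.19 and 3.03 to 5.35, 5.31, 5.36 and 4.82. Cldn1 fell from −1.27, −1.70, −1.44 and −1.81 to −7.35, −7.64, −7.43 and −4.74, with a single E2 array, that of slide 4, well above background. Cldn5, the claudin of endothelium, fell 4.02-fold and Cldn22 5.08-fold. Of 23 secretory and estrogen-responsive epithelial genes, a list made of genes known to respond, 16 were higher and 0 lower (median 2.26). Sprr2f, a cornified envelope protein, stood at −4.19, −4.54, −5.42 and −4.46 on placebo and at 2.30, 2.03, 2.82 and 1.81 on E2, with the Sprr2 genes nearly identical to each other and their shares uncertain. Lcn2, an iron-binding protein of secretions and neutrophils, rose 9.44-fold.

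Cytokine genes were mixed, and inhibitors of cytokine receptors rose. Of 26 genes of the interleukin 6 family and inflammatory cytokines 14 were higher and 7 lower (median 0.50), beside 27.6% and 30.1% of all genes. Under a stricter filter on dim probes 9 were higher, and with array medians subtracted 4 were lower. Socs3, a brake on cytokine receptors, went from 1.87, 1.73, 2.19 and 2.22 to 6.77, 6.70, 6.70 and 6.61, and Socs1 from 0.66, 0.62, 0.67 and 0.50 to 5.09, 5.03, 4.98 and 4.95. Il6 was above background with E2 alone, at least 8.56-fold higher. Il33, an alarmin, fell 3.06-fold, Tnfsf10 1.95-fold and Il1rl1, the receptor of IL-33, 1.75-fold. Of 30 chemokines 10 were higher and 3 lower, 6 of them higher without the 4 arrays high in adipocyte markers, and the median changed sign between scalings (0.06 as reported, −0.14 with the percentile of detected probes). Ccl7, which draws monocytes, went from −2.13, −1.20, −2.22 and −0.77 to 2.13, 1.54, 2.07 and 1.41. Cxcl1, which draws neutrophils, rose 13.9-fold with 3 placebo arrays well above background. Ccl11, which draws eosinophils, fell 1.76-fold.

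Interferon-stimulated genes were more often lower than higher. Of 34 tested, 4 were higher and 18 lower (median −0.66), beside 27.6% and 30.1% of all genes. Under quantile normalization 2 were higher, and 1 without the 4 arrays high in adipocyte markers. Ifit2, an antiviral RNA-binding protein, fell from −0.75, −0.43, −0.55 and −0.31 to −2.80, −3.24, −2.77 and −2.88. Ifit3 and Cmpk2 fell 4.1 and 4-fold. The 4 higher genes included Isg20 at 0.84 ± 0.17 and Bst2 at 0.60 ± 0.14. Irf9, which carries the interferon signal, was not called, at 0.24 (adjusted p = 0.156).

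Clock genes all moved, in opposite directions. Of 19 tested, 9 were higher and 10 lower, and each was called, beside 57.6% of all genes. Dbp, an output factor of the clock, fell from 6.47, 6.85, 6.11 and 5.95 to 4.18, 3.82, 3.30 and 2.70, Per3 fell 7.14-fold and Nr1d1 6.89-fold. Nfil3, which opposes Dbp on the same DNA sites, rose from 1.33, 0.59, 1.68 and 0.12 to 3.37, 3.11, 3.93 and 3.22. Ciart rose 4.15-fold and Bhlhe40, a repressor of the clock, 3.44-fold. The labels used here give no time of day for either group.

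Most Hox genes, which pattern the body axis, fell. Of 31 Hox genes tested, 0 were higher and 23 lower (median −0.67), beside 27.6% and 30.1% of all genes. The counts were 2 and 18 with array medians subtracted and 1 and 22 without the 4 arrays high in adipocyte markers. Hoxa3 went from 0.72, 0.94, 0.61 and 0.62 to −0.62, −0.59, −1.12 and −1.38, and Hoxa5 and Hoxc6 fell 3.12 and 3.01-fold. Other transcription factors of the uterus were mixed, 13 of 37 higher and 9 lower, with 20 higher when array medians were subtracted. Sox9, a factor of glandular epithelium, rose from −3.19, −3.23, −3.41 and −3.56 to 1.31, 0.83, 1.07 and 0.78. Prrx2, a mesenchymal homeobox gene, rose from 1.06, 1.26, 1.28 and 1.53 to 5.88, 5.70, 5.62 and 5.11, while its relative Prrx1 fell 2.49-fold. Twist2 rose 9.89-fold, Sox4 fell 2.94-fold, and Runx2 was called lower, well above background on 1 of 4 E2 arrays.

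Markers of cell types give the context for these lists. Of the 18 uterine epithelium genes 10 were higher, 0 lower and 8 not called, beside 27.6% higher and 30.1% lower of all genes. Their median change was 0.32, and 4 were lower under the percentile of detected probes. Their median level was 1.42 to 1.57 on placebo and 2.17 to 2.32 on E2. That gap need not equal the median change, because the middle genes can differ between arrays. The general epithelial markers changed little. Krt18 at −0.29 and Epcam at 0.28 were not called, and the probes of Krt19 and Cdh1 were called higher, at 0.32 and 0.31. Elf3, an epithelial transcription factor, rose 6.34-fold and Krt7 4.76-fold. Stromal and fibroblast genes went the other way, with a median change of −0.75 and 12 of 16 lower, or 8 without the 4 arrays high in adipocyte markers. The median level of these stromal genes was 3.92 to 4.26 on placebo and 2.59 to 3.64 on E2. Among them Dpt fell 2.88-fold and Col3a1, a fibrillar collagen, 2.49-fold, while Cd34 rose 1.56-fold. Their part in the falls of matrix and Hox genes was not tested. Smooth muscle genes were lower in 4 of 13 and higher in 0, with a median level of 4.21 to 4.69 and 4.04 to 4.33, and their median change differed in sign between scalings (−0.17 as reported, 0.05 with array medians subtracted).

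Markers of vessels, blood-borne and minor cell types were mixed, and their counts stand beside 27.6% higher and 30.1% lower of all genes. Endothelial genes were higher in 5 of 15 and lower in 2 (lower in 5 under quantile normalization), with a median change of 0.05. The VEGF receptor Kdr was 2.17-fold and Plvap 2.33-fold higher, and Cldn5 was lower as above. The endothelial markers Cdh5 and Emcn were not called, at −0.13 and −0.20. Another tested probe of Kdr was not called, at 0.29. Macrophage and dendritic cell genes were higher in 2 of 15 and lower in 4 (8 under quantile normalization, 1 with array medians subtracted), with overlapping median levels of 1.12 to 1.53 and 1.02 to 1.47. Neutrophil genes were higher in 4 of 9 and lower in 0, and 2 were higher without the 4 arrays high in adipocyte markers. Ly6g, a neutrophil marker, stood at −3.78, −3.85, −2.83 and −2.52 on placebo and at −2.03, −2.01, −0.67 and −0.69 on E2. The neutrophil markers S100a8, S100a9 and Mpo were not called, at 0.98, 0.23 and −0.76. The median level of the neutrophil genes was −3.36 to −2.83 on placebo and −3.10 to −1.82 on E2, so the groups overlapped. Eosinophil and mast cell genes were lower in 8 of 12 and higher in 1, but lower in 4 without the placebo array of slide 2 or of slide 4, without the E2 array of slide 2, or in the authors' series matrix. Lymphocyte genes were higher in 1 of 15 and lower in 3, with 0 to 6 lower across the scalings and single-array omissions. Of the minor organs, ovary and oviduct genes higher in 1 of 8 and lower in 1, and genes of mesothelium and nerve lower in 4 of 12. The genes of bladder, skeletal muscle and blood were higher in 1 of 8 and lower in 2. Adipocyte genes were higher in 0 of 11 and lower in 1, the glucose transporter Slc2a4, which fell 2.07-fold.

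The MISS WT arrays gave the same contrast in a second wild type with its own placebo arrays, 6 h after the same dose. There 9500 genes (35.1%) were called higher and 7342 (27.1%) lower. Of the 7466 genes higher in AF2 WT, 6805 (91.1%) were higher in MISS WT, which is 71.6% of the genes higher in MISS WT, and 12 were called the other way. Of the 8131 genes lower in AF2 WT, 6116 (75.2%) were lower in MISS WT, which is 83.3% of the genes lower there, and 305 were called the other way. The share was smaller for dim genes, at 62% of those lower in AF2 WT, than for brighter genes, at 84.7%.

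The response itself was tested for a difference between the wild types. It differed for 2571 genes (9.5%), more positive in AF2 WT for 841 and more negative for 1730, and for 5821 genes with slide as a block over the 31 arrays. Among the 59 genes described from the ranking rules and as single known genes, 17 differed. Chac1 rose by 6.37 in AF2 WT and by 3.45 in MISS WT, a difference of 2.91 ± 0.35 (adjusted p = 8.63e-06), and Gdf15 rose by 9.0 and 7.48, a difference of 1.52 ± 0.41 (adjusted p = 0.0178). Myc rose by 1.19 and 1.68, and Igf1 by 2.87 and 3.47. The kallikreins Klk1, Klk1b5 and Egfbp2 rose less in AF2 WT, by 5.99 to 6.12 against 7.23 to 7.35 in MISS WT. In each of these genes the direction was shared and the size differed. Pgr, Greb1, Aqp5 and Vegfa had differences of −0.04, 0.12, −0.01 and 0.33, none past the threshold, with adjusted p of 0.928, 0.944, 0.996 and 0.292. Line, background strain and any difference in handling cannot be told apart in this test.

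**Figure D4:**
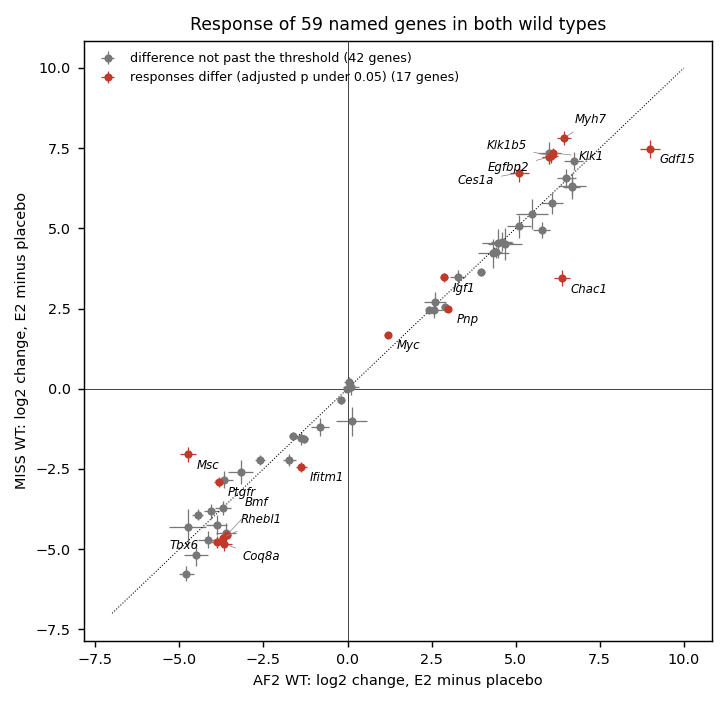
Log2 change with E2 (± SE of the fit) of 59 named genes in AF2 WT on the horizontal axis and MISS WT on the vertical axis, with a dotted line where the changes are equal. The 17 genes in red had responses that differed at an adjusted p under 0.05, Chac1 the furthest below the line among the rises at 6.37 against 3.45.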

How the data were processed

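Uterine RNA was labelled with Cy3 and hybridised to 31 Agilent 1-colour arrays in 8 groups, per the labels' protocols. The deposited spot intensity values came from Agilent Feature Extraction 10.10.1.1, which makes the background-subtracted processed signal, per the file headers and the submitters' processing notes. The authors' deposited series matrix holds log2 values of the same arrays, which the processing notes tie to limma with no version, and it was used as an alternative. From the processed signals, log2 values less the 75th percentile of each array were computed here, control spots and outlier flags were left out, and spots of a probe were averaged. Probes entered the test when all arrays of any single group read them well above background, and a gene was read by its brightest tested probe (40332 probes, 27056 genes). limma 3.58.1 in R 4.3.3 (lmFit and eBayes) fitted all 31 arrays with a mean for each group, and p-values were adjusted by Benjamini-Hochberg over all genes. Probe positions are mm9, per the file headers. Gene names were updated through RefSeq accessions for 27235 probes, of which 2838 changed. Promoter windows are RefSeq's on GRCm38.p6.

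Named genes are the 12 largest rises and 12 falls above background on all 8 arrays, the 6 in each direction read in a single group, the 6 in each direction among the top 5% by level, up to 3 called members of a list in each direction, members not called where a count is described, and 12 known genes. All but the last kinds had groups that did not overlap and 1 sign on 4 slides. The 63 lists and the members named were chosen with earlier results of these data known, and 5 list symbols were not found. Results for some genes are not reported here. The fit was tested on simulated data. Alternatives changed the scaling, background correction, filter, probe choice, slide block and arrays.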

Additional observations from a re-analysis of the deposited data

Results flagged for a closer look

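In 17 of 246 groups of 4 arrays examined, 1 array stood apart from the other 3, and chance gives about 1 in 20. Among named genes, Scube1 was at −0.73 on the placebo array of slide 1, against −2.12 to −1.92 on the others. Rhebl1 was at 2.12 on the placebo array of slide 2, against 1.93 to 1.96, and at −1.99 on the E2 array of the same slide, against −1.64 to −1.58. Unc5cl was at −1.76 on the E2 array of slide 4, against −1.14 to −1.06. Msc was at −6.60 there, against −5.76 to −5.60, all below background. Saxo1 was at −2.34 on the placebo array of slide 1, against −2.78 to −2.73, and at −7.46 on its E2 array, against −6.29 to −6.20. Pnp was at 7.07 on the E2 array of slide 1, against 7.01 to 7.02. Esr1 was at 3.65 on the E2 array of slide 4, against 3.03 to 3.14, the array without which the gene was called lower.

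Median levels of lists stood apart in the same way. On the placebo array of slide 4, G1 cyclins, E2F and Rb family genes were at −0.49 against −0.78 to −0.76, and CDK inhibitors and p53 targets at 1.5 against 1.24 to 1.28. On the E2 array of slide 1, DNA replication genes were at 0.78 against 0.40 to 0.43, and secretory epithelial genes at 2.61 against 2.82 to 2.85. Polyamine genes were at 2.01 on the placebo array of slide 1, and the placebo arrays spanned 2.01 to 2.02, a range too small to read. Small proteoglycans and elastic matrix genes were at 1.0 on the placebo array of slide 2 against 0.67 to 0.71. Neutrophil genes were at −3.10 on the E2 array of slide 4 against −2.03 to −1.82, and eosinophil and mast cell genes at −2.26 on the E2 array of slide 3 against −2.83 to −2.74.

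The response of 17 of 59 named genes differed between AF2 WT and MISS WT by the test of the difference (limma, Benjamini-Hochberg adjusted p under 0.05). Each value here is the AF2 WT change minus the MISS WT change. Genes that rose more in AF2 WT were Chac1 at 2.91, Gdf15 at 1.52 and Pnp at 0.50. Genes that rose less were Ces1a at −1.62, Myh7 at −1.38, Egfbp2 at −1.24, Klk1 at −1.23, Klk1b5 at −1.19, Igf1 at −0.60 and Myc at −0.50. Genes that fell less in AF2 WT were Coq8a at 1.18, Ifitm1 at 1.06, Bmf at 0.98, Rhebl1 at 0.95 and Tbx6 at 0.88. Genes that fell more were Msc at −2.70 and Ptgfr at −0.92. The values of Ces1a and Msc involve a group that was not above background.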

How the results depend on the processing

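Without 1 array at a time, genes called higher numbered 7010 to 7503 and lower 7520 to 8264, those at least 2-fold 2892 to 3109 and 3743 to 4234, those called the same way in MISS WT 6511 to 6849 and 5890 to 6019, and differing responses 2007 to 2910. Genes at least 2-fold lower numbered 1832 with normexp, 2477 in the series matrix and 2566 with a stricter filter on dim probes. Restricted to a mean level of −2 or more, a choice made after seeing the data, 4733 genes were lower and 1856 at least 2-fold lower. With slide as a block over all 31 arrays, 5821 responses differed between the wild types; the cause was not tested. Without the 4 arrays high in adipocyte markers, also chosen after seeing the data, 6075 genes were higher and 7459 lower. No paired analysis was possible because the labels number no replicates, so slide was the only block: over the 8 arrays it gave 7688 higher and 8718 lower. Fits of the 8 arrays alone give no value for MISS WT. Of the named genes' values, 1277 counted as unchanged. For a gene called as reported, that means the same direction and call. For a gene not called as reported, a change of sign also counted as unchanged, whatever its call. Among the rest, Esr1, Esr2 and Mki67 changed call, as given with them. Of 1386 list medians, 230 moved by more than the spread between arrays. Low signal limits the dim genes.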

Other observations

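Probes for long intergenic RNA intervals, whose names are genome intervals in mm9, included changes as large as those of the named genes. They fall outside the rule for named genes and were chosen after their values were seen. Of 3940 such genes tested, 14.6% were higher and 27.3% lower, beside 27.6% and 30.1% of all genes and 11.6% and 32% of dim genes. A probe at chr8:124397508-124397567 in the R-strand interval chr8:124355710-124401160_R stood at −3.94, −4.43, −4.45 and −2.87 on placebo and at 3.98, 3.41, 3.86 and 4.07 on E2. Its change of 7.75 ± 0.27 was 215-fold, and that of the interval chr8:124397412-124398022_R within it was 7.56 ± 0.23. The nearest named probe was that of Slc7a5 at 124405136, which rose by 3.67. Klhdc4 on the other side rose by 1.76, and BC020069 was not called, at −0.14 (adjusted p = 0.528). A pair of intervals on chromosome 11, chr11:79549532-79575807_F and chr11:79531768-79532127_F, rose by 4.94 and 4.60, next to Gm10387 at 3.35 and Rab11fip4 at −0.17, which was not called.

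Among the falls, chr5:14923900-15062725_F changed by −3.92 ± 0.14 and chr2:94046243-94070067_R by −3.38 ± 0.33. Within or near the former, Gm9758, Gm17019 and Speer8-ps1 changed by −2.58, −2.50 and −1.42. Near the latter, Ttc17 changed by 0.44. The interval chr10:62267317-62269871_R, beside Tet1, went from 0.50, 0.62, 0.42 and 0.49 on placebo to −3.09, −2.62, −3.13 and −2.46 on E2. Tet1 itself changed by −3.47, and Ccar1 on the other side by 0.70. Which transcript the probes of these intervals read, a separate RNA or the unannotated end of a neighbour, was not tested.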
